A study of Mus musculus with 19 samples.

Results

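Low dietary Mg2+ was compared with normal dietary Mg2+ in mice on a high-fat diet (HFD), in the epididymal white adipose tissue (eWAT), the visceral fat pad beside the epididymis. The 10 RNA-seq libraries with an HFD label, 5 LowMg-HFD and 5 NormMg-HFD, were used of the 19 libraries in the series, and every gene was considered. The mice were adult males of the strain C57Bl6/J without genetic modification, fed for 17 weeks a diet rich in palm oil in which only the Mg2+ content differed between both groups. Each library came from 1 mouse, picked at random from a larger group of mice that received that diet. The other 9 libraries came from mice on a low-fat diet (LFD), 4 NormMg-LFD and 5 LowMg-LFD, and entered the same model. Of the LowMg-HFD mice, the study left out 1 for traces of pancreatic tissue, which the sample labels do not name. LowMg-HFD replicate 4 stood apart from the other libraries, and results are therefore given with and without it.

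White adipose tissue stores fatty acids as triacylglycerol in the lipid droplet of the adipocyte and releases them by lipolysis. When the adipocytes enlarge on an HFD, macrophages gather around dying adipocytes, take up their lipid into lysosomes and adopt a lipid-associated state marked by the receptor Trem2, while the adipocytes express genes of lipid synthesis and insulin-stimulated glucose uptake at a lower level. Mg2+ is a cofactor of enzymes that use ATP and of the ribosome. In bulk tissue, fewer cells of a type and less RNA per cell cannot be told apart.

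Each library of the HFD mice had between 12986441 and 13027028 reads, of which 88.15% to 90.41% mapped. LowMg-HFD replicate 4 had 15700 genes over 1 FPKM (fragments per kilobase of transcript, scaled to the library's mapped reads), against 13271 to 13679 in the other HFD mice. Genes of sperm formation were high in that mouse. The protamine Prm1 was at 695.7 FPKM against 0.39 to 7.30 in the other 9, and the 8 testis genes listed summed to 3378 FPKM against at most 37.02 in the other LowMg-HFD mice and at most 18.2 in NormMg-HFD mice. None of these 8 genes passed the expression filter. The epithelial keratin Krt8 was at 43.2 FPKM in replicate 4 against 0.76 to 2.11. Of 18 exocrine pancreas genes 13 were under 1 FPKM in all 10 HFD mice, and the 18 summed in replicate 4 to 64.8 FPKM against 35.8 to 53.0 in NormMg-HFD mice. Mesothelial genes summed to 12.5 to 27.6 FPKM in NormMg-HFD and 22.1 to 109 in LowMg-HFD mice, with replicate 4 the highest. Adipocyte genes were high in every library, as the tissue label says: the 8 marker genes Adipoq, Fabp4, Plin1, Cidec, Lipe, Pparg, Lep and Retn summed to 12650 to 16970 FPKM in NormMg-HFD mice and 15040 to 18700 in LowMg-HFD mice.

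Low Mg2+ on the HFD went with higher expression of 465 (5.58%) and lower expression of 1077 (12.9%) of 8336 genes tested (limma on log2(FPKM + 1), Benjamini-Hochberg adjusted p under 0.05). Among these, 43 rose and 221 fell by more than 1 on the log2 scale, whereas 197 rises and 426 falls were smaller than 0.5. Without LowMg-HFD replicate 4, 471 genes (5.69%) were higher and 910 (11.0%) were lower of 8278, and 1225 genes were called in the same direction both ways. In a count that uses no test, 267 genes (3.20%) were higher in all 5 LowMg-HFD mice than in any NormMg-HFD mouse, and 797 (9.56%) were lower in all 5. The balance of rises and falls moved with the scaling: centring each library on its median gave 649 higher and 849 lower, and quantile normalization gave 786 and 878. The median log2 fold change over all genes tested was -0.04. Leaving out NormMg-HFD replicate 3 gave 262 higher and 659 lower. Leaving out 1 library also moved these counts by more than 1.5 times in other cases. The number of higher genes was 290 without NormMg-HFD replicate 1, 278 without LowMg-HFD replicate 3 and 300 without LowMg-HFD replicate 5, and the number higher without overlap was 473 without LowMg-HFD replicate 4, 477 without NormMg-HFD replicate 5 and 408 without LowMg-HFD replicate 2. For genes tested both ways, leaving out an HFD mouse can only raise the count without overlap, since fewer mice need to be apart. The expression filter asked for a mean over 8 FPKM, and at least 4 mice over it, in 1 of the 4 diets. Of the genes tested, 453 passed it in the NormMg-HFD mice alone, and of these 197 fell and 0 rose, a direction that the filter favours. Among the genes whose values are given here 20 did so, namely Atp6v0d2, Basp1, C3ar1, Cdk1, Cma1, Hk3, Il1rn, Mcm5, Mcpt4, Rgs1, S100a8, Slc37a2, Spp1, Sqle, Stap1, Timp1, Tlr13, Top2a, Tph2 and Tpsb2. The p-values rest on the spread between separate mice within a diet, pooled over all 4 diets and drawn towards a trend over all genes. The sample labels do not say which mice shared a cage.

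**Figure D1:**
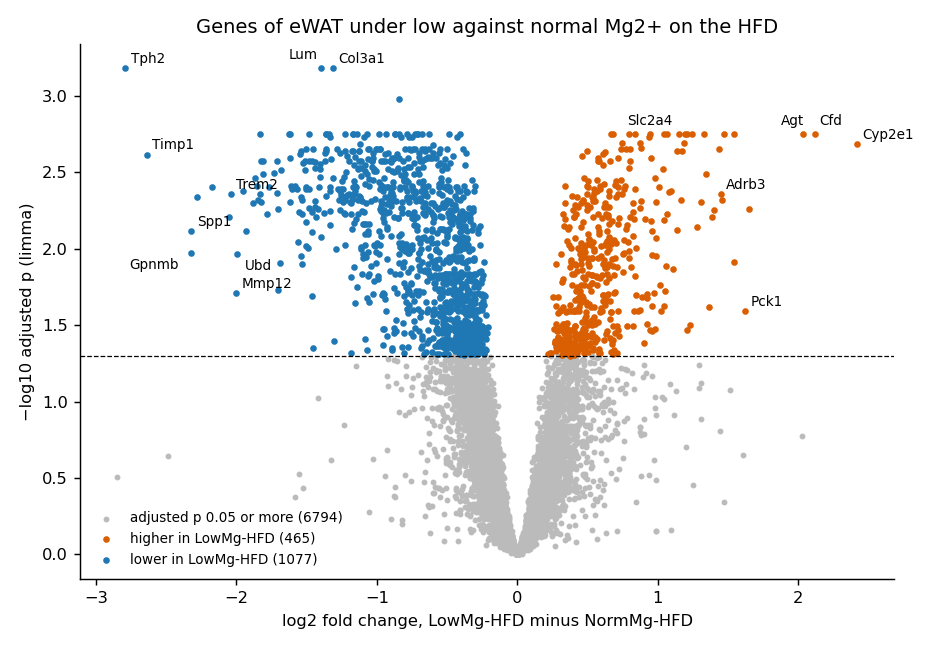
Log2 fold change between LowMg-HFD and NormMg-HFD mice (x axis) against −log10 of the limma adjusted p (y axis), one point per gene tested. Orange points are the 465 genes that were higher in LowMg-HFD mice, blue points the 1077 that were lower, and the dashed line is the threshold of 0.05.

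The largest rise was that of Cyp2e1, a cytochrome P450 that oxidises small molecules such as ethanol and acetone. Its FPKM was 203, 111, 50.98, 72.98 and 164 in NormMg-HFD replicates 1 to 5 and 369.5, 307, 1027, 681 and 798 in LowMg-HFD replicates 1 to 5, so that the lowest LowMg-HFD mouse lay above the highest NormMg-HFD mouse (log2 fold change 2.42 ± 0.42, adjusted p = 0.00207). Cfd, the adipsin gene, which encodes a serine protease of the alternative complement pathway made by adipocytes, was at 378, 397, 287, 350.3 and 649 FPKM in NormMg-HFD and 1652, 806, 3539, 1667 and 1963 FPKM in LowMg-HFD mice (2.12 ± 0.32, adjusted p = 0.00178). Agt, the precursor of angiotensin, was at 15.1, 18.3, 12.8, 19.9 and 28.9 in NormMg-HFD and 74.3, 37.9, 117, 104 and 83.8 in LowMg-HFD mice (2.03 ± 0.32, adjusted p = 0.00178). For all 3 genes LowMg-HFD replicate 3 was the highest mouse and replicate 2 the lowest of its group. Without replicate 4 the fold changes of Cyp2e1, Cfd and Agt were 2.36, 2.13 and 1.93.

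The rises next in size among genes whose groups did not overlap had different roles. Retn, which encodes the adipokine resistin, rose from 262, 276, 199.9, 262 and 369 FPKM to 513, 451, 1117, 604 and 897 FPKM (1.33 ± 0.21, adjusted p = 0.00178). Timp4, an inhibitor of matrix metalloproteinases that adipocytes express, rose from 41.6 ± 15.5 (SD, n = 5) to 113 ± 23.1 (1.47 ± 0.22, adjusted p = 0.00178). Thrsp (Spot 14), a regulator of lipogenesis, rose from 190.4 ± 62.6 to 461 ± 114 (1.31 ± 0.29, adjusted p = 0.00498), and Gsta3, a glutathione transferase, from 23.7 ± 5.72 to 70.2 ± 30.8 (1.43 ± 0.25, adjusted p = 0.00223). Abat degrades the transmitter GABA, and its level was 9.47, 9.30, 6.06, 9.51 and 17.5 FPKM in NormMg-HFD mice and 27.3, 24.5, 23.6, 23.5 and 24.7 in LowMg-HFD mice (1.25 ± 0.20, adjusted p = 0.00178). The LowMg-HFD values of Abat lay within a narrow range, as did those of Ndrg2, a gene induced on differentiation (132, 107, 120.1, 123 and 124 against 40.7, 63.4, 38.1, 50.99 and 74.7 FPKM in NormMg-HFD mice, 1.21 ± 0.18, adjusted p = 0.00178). The secreted phospholipase Pla2g2d and the mitochondrial acyl-CoA synthetase Acsm3 were low in NormMg-HFD mice, at most 4.05 and 1.21 FPKM, and rose by 1.34 and 1.45 on the log2(FPKM + 1) scale, which understates the change of genes as low as these. These rises also passed without replicate 4.

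Tph2, a tryptophan hydroxylase that catalyses the first step of serotonin synthesis and is known chiefly from neurons, had the largest fall. This gene passed the expression filter through the NormMg-HFD mice alone, which favours a fall. It was at 28.6, 38.3, 46.5, 31.6 and 25.9 FPKM in NormMg-HFD mice and 3.46, 12.8, 0.910, 5.59 and 2.93 FPKM in LowMg-HFD mice (-2.79 ± 0.35, adjusted p = 0.000661). In the LFD mice it was near the limit of detection, at 0.645 ± 0.214 FPKM (SD, n = 4) in NormMg-LFD and 0.510 ± 0.288 (n = 5) in LowMg-LFD mice. Without replicate 4 the difference of Tph2 was -2.89. Of the other genes of serotonin synthesis, transport and reception that were listed, Tph1, Ddc, Slc6a4, Htr2a and Htr2b did not pass the expression filter. The monoamine oxidase Maoa fell by 0.54 on the log2 scale (adjusted p = 0.00343) and Maob rose by 0.46 (adjusted p = 0.0138).

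Timp1, the inducible inhibitor of metalloproteinases, fell from 35.7, 14.6, 105, 46.2 and 18.9 FPKM to 4.27, 10.01, 3.06, 5.50 and 2.99 FPKM (-2.64 ± 0.49, adjusted p = 0.00243). Ubd, a ubiquitin-like modifier induced by inflammatory cytokines, was at 201, 207, 296, 249 and 211 in NormMg-HFD and 114, 190.3, 11.5, 62.5 and 36.6 in LowMg-HFD mice (-1.99 ± 0.51, adjusted p = 0.0108). The spread within the LowMg-HFD group was wide for Ubd, from replicate 3 to replicate 2, yet the groups did not overlap. Saa3, the serum amyloid A form made in adipose tissue, fell from 86.3 ± 39.3 to 24.5 ± 15.5 (-1.93 ± 0.46, adjusted p = 0.00766), and the calprotectin subunit S100a8 of neutrophils and monocytes from 31.2 ± 22.2 to 8.44 ± 6.16 (-1.83 ± 0.40, adjusted p = 0.00492). Il1rn, the interleukin-1 receptor antagonist, fell by 1.83, the growth-cone protein Basp1 by 1.83 and Lat2, an adaptor of immune receptors, by 1.82 (adjusted p = 0.00437, 0.00178 and 0.00267). Timp1, S100a8, Il1rn and Basp1 also passed the expression filter through the NormMg-HFD mice alone, which favours a fall.

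Genes of macrophages fell together. Of 18 genes that macrophages of any kind express, 16 fell (88.9%, against 12.9% of all genes tested) and 0 rose, with a median log2 fold change of -1.18. Without replicate 4, 16 fell and the median was -1.005, and 16 fell whichever 1 of the 19 mice was left out. Fcgr1 passed the filter through the NormMg-HFD mice alone, and of the other 17, 15 fell. The receptor Adgre1, which carries the F4/80 epitope, was at 136, 105, 135, 113 and 74.2 FPKM in NormMg-HFD mice and 70.2, 57.8, 23.6, 18.9 and 29.1 FPKM in LowMg-HFD mice (-1.62 ± 0.27, adjusted p = 0.00178). Its values in LowMg-HFD replicates 1 and 2 were under the lowest NormMg-HFD mouse, and those of replicates 3 to 5 lay well below them. The endosomal glycoprotein Cd68 (-1.60), the lysozyme Lyz2 (-1.03), the growth factor receptor Csf1r (-0.77) and the lipopolysaccharide co-receptor Cd14 (-1.17) passed in the same direction and without overlap. The 18 genes summed to 3055 to 4919 FPKM in NormMg-HFD mice and 1119 to 2744 in LowMg-HFD mice, and none was at 0. Mertk and Aif1, at 0.13 and -0.10, did not pass. Aif1 was at 63.8 FPKM in LowMg-HFD replicate 4, in which the testis genes were high, and this was the highest value of its group. Without that mouse the value was -0.63 (adjusted p = 0.0549, 0.0549 to 0.987 over all alternatives).

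The genes of lipid-associated macrophages had a median of -1.53 over 19 genes (-1.38 without replicate 4). Of these, 4 passed the expression filter through the NormMg-HFD mice alone, namely Atp6v0d2, Nceh1, Slc37a2 and Spp1. Of the other 15, 11 fell, against 12.9% of all genes tested, and Acp5, a phosphatase, rose by 0.41 (adjusted p = 0.0216). Trem2, the lipid receptor that marks these cells, was at 202, 151, 257, 188 and 115 FPKM in NormMg-HFD mice and 110.1, 99.4, 21.1, 21.7 and 25.3 in LowMg-HFD mice (-2.04 ± 0.44, adjusted p = 0.00439). Gpnmb, a glycoprotein of lysosomes, was at 542, 319, 548, 445 and 294 in NormMg-HFD and 339, 262, 30.8, 26.1 and 50.4 in LowMg-HFD mice. For Gpnmb the groups overlapped, since LowMg-HFD replicate 1 lay above NormMg-HFD replicates 2 and 5, and the other 4 were below every NormMg-HFD mouse (-2.33 ± 0.59, adjusted p = 0.0106).

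Atp6v0d2, the subunit of the proton pump found in macrophages and osteoclasts and 1 of the 4 genes kept through the NormMg-HFD mice alone, showed the same split of the LowMg-HFD mice, at 57.9, 47.5, 4.72, 6.13 and 9.65 FPKM in LowMg-HFD mice against 99.8, 60.6, 97.8, 88.2 and 60.9 in NormMg-HFD mice (-2.28 ± 0.49, adjusted p = 0.00456). The elastase Mmp12 fell by 2.00 (adjusted p = 0.0195) and did not pass without replicate 4, at -1.58 (adjusted p = 0.0522, 0.00338 to 0.0636 over all alternatives). Itgax (CD11c) fell by 1.53, the galectin Lgals3 by 1.81, and Plin2, the droplet coat protein that macrophages share with other cells, by 1.09. The sugar-phosphate exchanger Slc37a2 and osteopontin (Spp1), which the filter kept through the NormMg-HFD mice alone, had values of -1.95 and -2.32. Fabp5, Lgals1 and Lpl, which other cells of the tissue also express, did not pass.

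In contrast, genes that mark resident macrophages of lean tissue moved both ways. Of 15, 4 rose and 4 fell (26.7% each, against 5.58% and 12.9% of all genes tested), with a median of 0.16, and 2 rose without LowMg-HFD replicate 3 or 5. The rises were those of the lectins Cd209d (1.02), Cd209f (0.80) and Cd209g (0.82) and of Retnla, a resistin-like protein that is also made by adipose cells (254, 234, 152, 169.5 and 404 FPKM in NormMg-HFD and 482, 359, 620.03, 356 and 613 in LowMg-HFD mice, 1.05 ± 0.24, adjusted p = 0.00647). The folate receptor Folr2 (-0.82), the mannose receptor Mrc1 (-0.72), Pf4 (-0.70) and Clec10a (-0.53) fell, the last not without replicate 4 (adjusted p = 0.102, 0.0152 to 0.134 over all alternatives). The hyaluronan receptor Lyve1 and the haemoglobin receptor Cd163 had values of 0.32 and 0.27 and did not pass.

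Averaged over its genes on the log2(FPKM + 1) scale, the lipid-associated macrophage level was 7.803, 7.36, 7.96, 7.73 and 7.29 in NormMg-HFD mice and 7.23, 7.08, 5.55, 5.67 and 5.87 in LowMg-HFD mice. This average includes Atp6v0d2, Nceh1, Slc37a2 and Spp1, which the filter kept through the NormMg-HFD mice alone, and this favours a gap between the groups. LowMg-HFD replicates 1 and 2 lay just below the lowest NormMg-HFD mouse, and replicates 3, 4 and 5 lay well below. The lysosomal genes showed the same split, at 7.08, 7.002, 6.31, 6.28 and 6.44 in LowMg-HFD against 7.51, 7.198, 7.58, 7.39 and 7.201 in NormMg-HFD mice. The collagens, by comparison, were at 6.44, 6.67, 6.37, 6.47 and 6.55 in LowMg-HFD and 7.12, 7.03, 7.06, 7.13 and 6.99 in NormMg-HFD mice, and replicates 1 and 2 did not stand apart from the other LowMg-HFD mice.

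**Figure D2:**
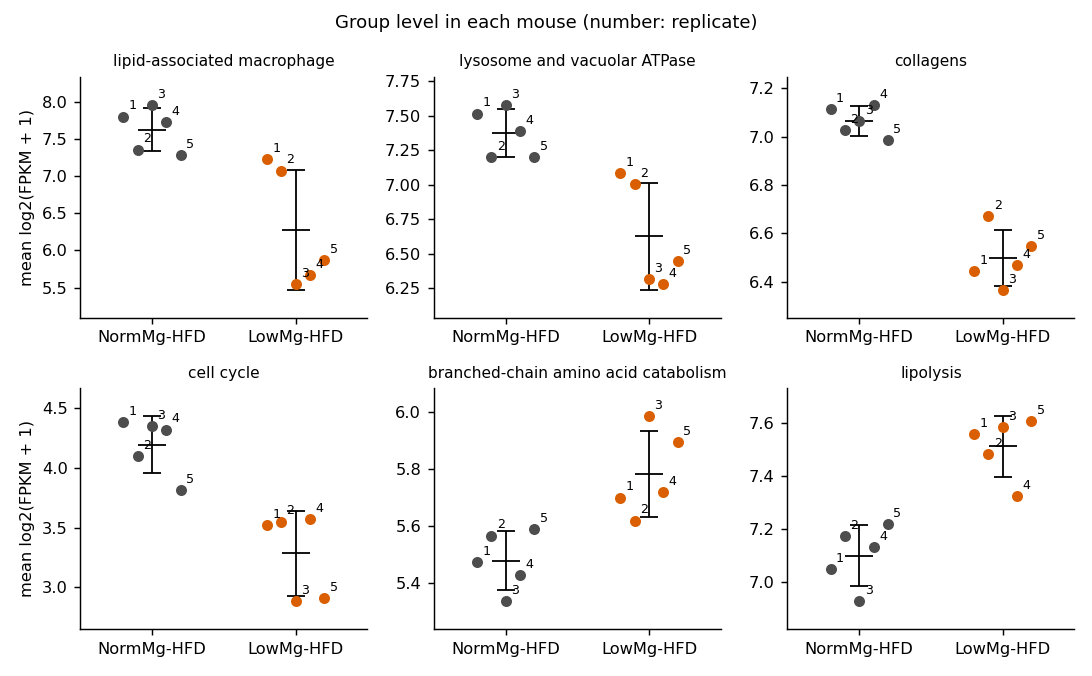
Mean log2(FPKM + 1) of 6 gene groups (y axis) in each of the 10 HFD mice, NormMg-HFD in grey and LowMg-HFD in orange, with the replicate number beside each point and the group mean ± SD in black. For lipid-associated macrophage and lysosomal genes LowMg-HFD replicates 1 and 2 lie near the NormMg-HFD mice, whereas for collagens all 5 LowMg-HFD mice lie below them, at 6.37 to 6.67 against 6.99 to 7.13. Of the genes averaged, 10 of 14 cell cycle, 4 of 19 lipid-associated macrophage and 1 of 29 lysosomal genes passed the filter through the NormMg-HFD mice alone. This favours a gap between the groups.

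Among genes that macrophages use to kill and to signal, the counts differed between the lists. Of 6 genes of the phagocyte NADPH oxidase, which makes superoxide, 1 (Rac2) passed the expression filter through the NormMg-HFD mice alone, and the other 5 fell, against 12.9% of all genes tested (median of the 6, -1.17), among them the catalytic subunit Cybb (-1.18). Of 9 cytokine and inflammasome genes 7 fell (77.8%) and 0 rose (median -0.83), and Tnf, Il1b and Il6 did not pass the expression filter. Of these 9, 3 passed the filter through the NormMg-HFD mice alone, and of the other 6, 5 fell. Of 12 chemokines, 7 fell (58.3%), and 3 did so without NormMg-HFD replicate 3. Ccl5 and Cxcl14 passed the filter through the NormMg-HFD mice alone, and of the other 10 chemokines 6 fell. Ccl2, which draws monocytes into tissue, was at 43.8, 43.3, 98.99, 47.1 and 37.8 FPKM in NormMg-HFD and 30.02, 25.1, 16.6, 17.98 and 25.8 in LowMg-HFD mice (-1.14 ± 0.25, adjusted p = 0.00483), without overlap. Of 5 receptors of chemokines and of the complement peptide C5a, 1 fell (2 without NormMg-HFD replicate 5, LowMg-HFD replicate 1, NormMg-LFD replicate 5 or LowMg-LFD replicate 1 or 4, and 3 without LowMg-HFD replicate 2). Of 9 Toll-like receptors and adaptors 4 fell, of which 3 were among the 5 that passed the filter through the NormMg-HFD mice alone. Of 13 complement genes 2 rose (15.4%, against 5.58% of all genes tested). The 1 that fell, C3ar1, passed the filter through the NormMg-HFD mice alone, and 0 of the other 12 fell (over all 13, 2 fell without LowMg-HFD replicate 1 or 2 or LowMg-LFD replicate 4, and 3 without LowMg-LFD replicate 1). The receptor C5ar1 fell (-1.48). C3ar1 and the RNA sensor Tlr13, which the filter kept in the same way, had values of -1.71 and -1.70. Tlr4, the lipopolysaccharide receptor, did not pass at -0.42 (adjusted p = 0.0771).

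Of 6 MHC class II genes 5 fell (83.3%, against 12.9% of all genes tested, median -0.56), and all 6 were lower in every LowMg-HFD mouse than in any NormMg-HFD mouse, against 9.56% of all genes tested. Without replicate 4, 2 of 6 passed, namely Cd74, the invariant chain, at -0.48 and H2-DMb1 at -0.98. The chains H2-Aa and H2-Ab1 fell by 0.55 and 0.52 over all mice and did not pass without it. For H2-Aa the value was then -0.41 (adjusted p = 0.0616, 0.01 to 0.0771 over all alternatives) and for H2-Ab1 -0.36 (adjusted p = 0.106, 0.018 to 0.147 over all alternatives). Without NormMg-HFD replicate 3 only 1 passed, and without LowMg-HFD replicate 3 or 5 it was 2. None of the 9 interferon-stimulated genes passed in either direction, and 1 fell without NormMg-HFD replicate 4. Their median was -0.04, and its sign changed with median centring (0.02).

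Markers of other immune cells were sparse. Of 8 mast cell genes 3 proteases passed the expression filter. They did so through the NormMg-HFD mice alone, and none passed it when any 1 of NormMg-HFD replicates 1 to 4 was left out, so that the filter itself chose genes that were high in these mice. Mcpt4 was at 20.4, 19.2, 13.1, 12.3 and 6.88 FPKM in NormMg-HFD and 4.07, 4.66, 8.32, 3.00 and 4.07 in LowMg-HFD mice (-1.38 ± 0.31, adjusted p = 0.0058), with NormMg-HFD replicate 5 below LowMg-HFD replicate 3. Cma1 and Tpsb2, at up to 7.16 and 8.08 FPKM in LowMg-HFD mice, had values of -1.36 and -1.33. The 8 neutrophil genes summed to 19.6 to 154 FPKM in NormMg-HFD and 8.08 to 20.8 in LowMg-HFD mice, and 1 of them, S100a8, passed the filter, again through the NormMg-HFD mice alone. The 12 lymphocyte genes were all under the filter, and their summed FPKM was 11.3 to 53.0 in NormMg-HFD and 16.1 to 30.6 in LowMg-HFD mice. Among endothelial genes 3 of 12 rose (25.0%, against 5.58% of all genes tested), with the VEGF receptor Kdr in front (0.54 ± 0.14, adjusted p = 0.0103), and 6 did so with median centring and 5 without NormMg-HFD replicate 2, whereas Pecam1, Cdh5 and the other 7 did not pass.

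Lysosomal genes fell broadly. Of 29 genes of lysosomal enzymes, membrane proteins and the proton pump, 25 fell (86.2%, against 12.9% of all genes tested) and 0 rose (median -0.73; 23 and -0.69 without replicate 4), and between 22 and 26 fell when each mouse was left out. Without Atp6v0d2, which the filter kept through the NormMg-HFD mice alone, it was 24 of 28. The proteases Ctss (-1.44), Ctsb (-0.81) and Ctsd (-0.77) and the acid lipase Lipa (-1.40) were among them. Ctsd was at 1983, 1487, 2209, 1813 and 1598 FPKM in NormMg-HFD and 1400.4, 1399.9, 780.3, 843 and 1006 in LowMg-HFD mice. Macrophage genes fell in the same mice, and their part in this difference was not tested. Many lysosomal promoters hold a site for the factor TFEB. Its letters, TCACGTGA, which read the same on both strands, were searched in the 250 bases before the start sites of the RefSeq promoters (GRCm38.p6). They were found for 4 of the 20 lysosomal genes with a promoter entry (20.0%) and for 0.907% of all 27025 genes with an entry, or 1.91% of the 6281 of these that were tested. The 4 stretches are shown because these genes share the sequence, with the match in capitals and up to 40 bases on each side, read 5′ to 3′ on the gene's strand:
Ctsa (chr2:164833720-164833772, plus strand): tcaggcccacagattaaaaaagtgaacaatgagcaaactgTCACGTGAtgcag
Ctsd (chr7:142387879-142387966, minus strand): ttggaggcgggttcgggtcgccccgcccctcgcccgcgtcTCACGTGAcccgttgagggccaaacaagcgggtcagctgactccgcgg
Atp6v1a (chr16:44139344-44139431, minus strand): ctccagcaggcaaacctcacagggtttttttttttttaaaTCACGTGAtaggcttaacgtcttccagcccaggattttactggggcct
Mcoln1 (chr8:3500433-3500518, plus strand): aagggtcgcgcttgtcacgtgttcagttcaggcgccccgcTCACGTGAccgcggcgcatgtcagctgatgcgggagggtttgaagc
Of these genes the carboxypeptidase Ctsa (-0.80), Ctsd and the pump subunit Atp6v1a (-0.87) fell, and the calcium channel Mcoln1 did not pass at -0.23 (adjusted p = 0.183). A match is a description of the sequence and not evidence of binding. The letters TCACNCCAC of the sterol regulatory element, searched on both strands in the same windows, were found for 1 of the 15 cholesterol synthesis genes with an entry (6.67%), 1.22% of all genes and 1.35% of those tested.

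Of 14 genes of cell division tested, 10 passed the expression filter through the NormMg-HFD mice alone, so that the filter favoured genes high in these mice. Of the other 4, 2 fell and 0 rose, against 12.9% and 5.58% of all genes tested. Pcna, the clamp of the DNA polymerase, was among the genes that fell (-0.87). Of the 10 that the filter kept through the NormMg-HFD mice alone, the mitotic kinase Cdk1 was at 24.7, 15.6, 25.9, 23.9 and 12.5 FPKM in NormMg-HFD and 12.6, 7.51, 2.92, 10.6 and 2.94 in LowMg-HFD mice (-1.51 ± 0.35, adjusted p = 0.00667). The topoisomerase Top2a and the replication helicase subunit Mcm5, kept in the same way, had values of -1.09 and -1.17. Without replicate 4 the difference of Cdk1 was -1.68. Mki67 and 9 others of the list were under the filter. The cell cycle inhibitor Cdkn1a (p21) also fell, by 0.96 (adjusted p = 0.0336). Macrophage genes fell in the same mice, and their part in this difference was not tested.

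Of 74 cytosolic ribosomal protein genes 31 fell (41.9%, against 12.9% of all genes tested) and 0 rose, and the median was -0.28. The largest fall was that of Rps27a, a fusion of ubiquitin and a ribosomal protein (-0.49 ± 0.12, adjusted p = 0.00749). The number that passed was 18 without replicate 4 and 17 with median centring, under which the median was -0.22, and the median was -0.15 with quantile normalization. It was 7 without NormMg-HFD replicate 3, 16 without NormMg-HFD replicate 4, 19 without NormMg-HFD replicate 1, and 17 and 13 without LowMg-HFD replicates 3 and 5. Of 33 translation factors 5 fell (15.2%) and 1 rose (3.03%), shares close to the 12.9% and 5.58% of all genes tested. Of these factors 2 or 3 fell without NormMg-HFD replicate 1, 3, 4 or 5, LowMg-HFD replicate 2, 3, 4 or 5, NormMg-LFD replicate 2 or 3 or LowMg-LFD replicate 2 or 5. The number that rose was 0 without LowMg-HFD replicate 3 or 5, and 2 without NormMg-LFD replicate 4, NormMg-HFD replicate 5 or LowMg-HFD replicate 4. Both helicase paralogues of the cap-binding complex passed and went opposite ways, Eif4a1 at -0.42 and Eif4a2 at 0.32 (adjusted p = 0.0114 and 0.0158). Of 14 endoplasmic reticulum stress genes 5 fell (35.7%; 3 without NormMg-HFD replicate 1), among them the chaperone Hspa5 (-0.54) and the transcription factor Atf3 (-1.78), and asparagine synthetase (Asns) rose (0.61).

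The extracellular matrix of the fat pad, which thickens in obesity, was represented by 15 collagen genes, of which 10 fell (66.7%, against 12.9% of all genes tested) and 0 rose (median -0.41; 9 without replicate 4). Median centring left 7. The fibrillar collagen Col3a1 was at 1032, 699, 1068, 934 and 705 FPKM in NormMg-HFD and 343, 452, 326, 328 and 322 in LowMg-HFD mice (-1.31 ± 0.17, adjusted p = 0.000661). LowMg-HFD replicate 2 was the highest of its group, and all were below the lowest NormMg-HFD value. Col1a1 fell from 161 ± 26.1 to 68.5 ± 11.5 (-1.22 ± 0.19, adjusted p = 0.00178), and the chain Col6a3, the source of endotrophin, by 0.82.

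Lumican (Lum), a proteoglycan that spaces collagen fibrils, was at 139.7, 134, 132, 121 and 72.5 FPKM in NormMg-HFD and 41.5, 60.9, 33.6, 51.7 and 36.03 in LowMg-HFD mice (-1.40 ± 0.18, adjusted p = 0.000661). Together with Tph2 and Col3a1 it had the lowest adjusted p of the genes named here. Of 18 matrix glycoproteins and cross-linking enzymes 10 fell (55.6%; 6 without LowMg-HFD replicate 4 or NormMg-HFD replicate 3 or 4), including fibronectin (Fn1, -0.81) and lysyl oxidase (Lox, -0.55), the latter not without replicate 4 (adjusted p = 0.0646, 0.0156 to 0.122 over all alternatives). The metalloproteinases Mmp2 (-1.11) and Mmp14 (-0.89) fell. Their inhibitors diverged: Timp1, which passed the filter through the NormMg-HFD mice alone, and Timp2 (-0.48, not without replicate 4: adjusted p = 0.103, 0.0149 to 0.122 over all alternatives) fell, and Timp3 (0.64) and Timp4 rose. Of 11 progenitor markers 1 rose and 1 fell (9.09% each), shares close to the 5.58% and 12.9% of all genes tested. The number that rose was 0 without NormMg-HFD replicate 1, 3, 4 or 5 or LowMg-HFD replicate 3, 4 or 5, and 2 fell without LowMg-HFD replicate 3. Cd248 fell (-0.75), Fmo2 rose (0.67, not without replicate 4: adjusted p = 0.0756, 0.0106 to 0.128 over all alternatives) and Pdgfra did not pass (-0.37).

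**Figure D3:**
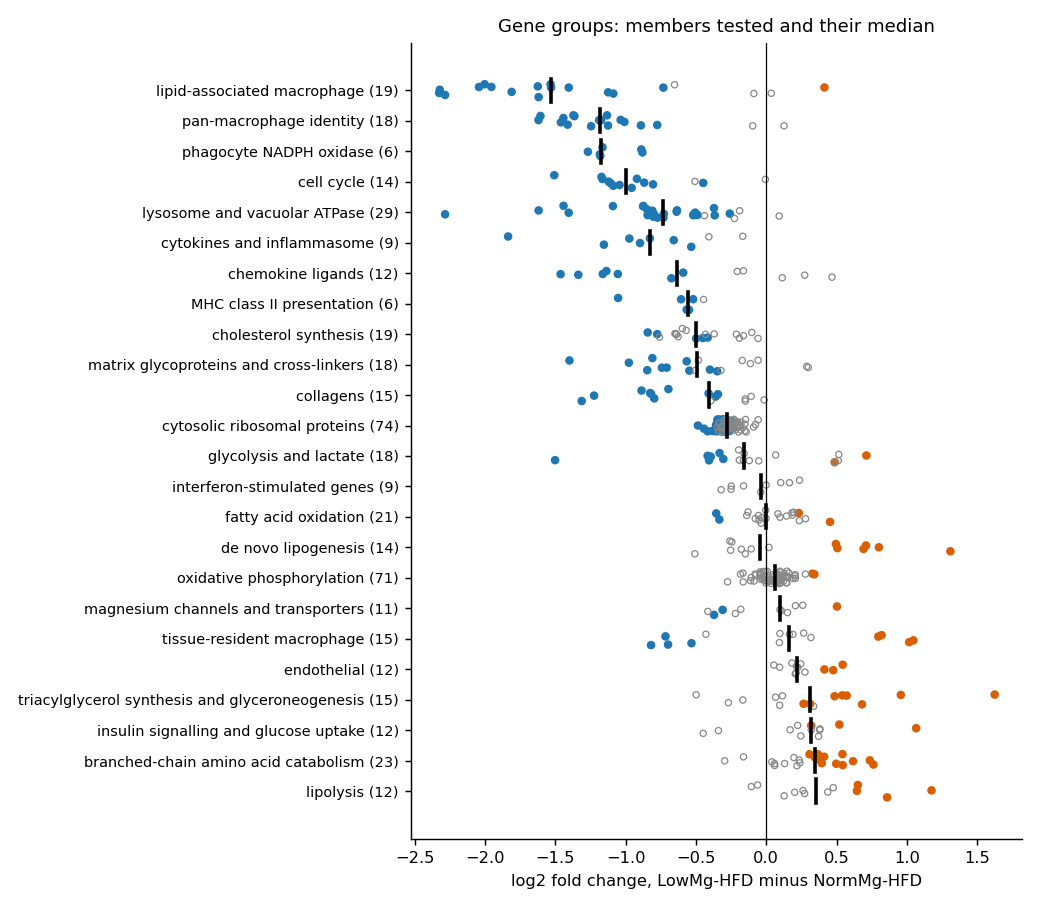
Log2 fold change (x axis) of each gene tested in 24 gene groups (rows, number of genes tested in brackets). Filled points passed the limma threshold, blue lower and orange higher in LowMg-HFD mice, open points did not, and the black bar is the median, from -1.53 for lipid-associated macrophage genes to 0.36 for lipolysis genes. Points and medians include genes that passed the expression filter through the NormMg-HFD mice alone.

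Several genes of the adipocyte were higher in LowMg-HFD mice, beside the higher adipocyte marker sum given above, whose part in these differences was not tested. The beta3-adrenergic receptor Adrb3, through which catecholamines start lipolysis, was at 122, 62.1, 67.9, 58.4 and 124 FPKM in NormMg-HFD mice and 231, 117, 392, 139 and 398 in LowMg-HFD mice (1.45 ± 0.31, adjusted p = 0.00439). LowMg-HFD replicates 3 and 5 were highest, and replicate 2 lay below NormMg-HFD replicates 1 and 5, so that the groups overlapped. Without replicate 4 the rise was 1.62. Downstream of it, the phosphodiesterase Pde3b, which breaks down cAMP, rose by 0.75, the adenylyl cyclases Adcy4 and Adcy6 by 0.43 and 0.39, and the regulatory subunit Prkar1a fell by 0.24. Beta1- and beta2-adrenergic receptors were under the filter.

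Of 12 lipolysis genes, 4 rose (33.3%, against 5.58% of all genes tested) and 0 fell (median 0.36). The carboxylesterase Ces1d, a triacylglycerol hydrolase, rose most, from 157, 195, 121, 156 and 208 FPKM to 379, 252, 608, 249 and 495 FPKM (1.18 ± 0.21, adjusted p = 0.0023), and its neighbour Ces1f rose by 0.86 (adjusted p = 0.0256). These esterase genes are near-identical copies in 1 cluster, and reads shared between them may have been split. Pnpla2 (ATGL) and Lipe (HSL), the lipases of the first steps, rose by 0.64 and 0.65 without overlap. The last lipase, Mgll, and the ATGL inhibitor G0s2 had values of 0.13 and 0.27 and did not pass (adjusted p = 0.44 and 0.303). Of the droplet coat proteins, Plin1 (0.45) and Plin4 (0.83) rose while Plin2 fell.

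Of 15 genes that build triacylglycerol, 8 rose (53.3%, against 5.58% of all genes tested) and 0 fell (median 0.31; 6 without replicate 4). The number was 3 without NormMg-HFD replicate 1 or 2 or LowMg-HFD replicate 3 or 5, 4 without NormMg-HFD replicate 3 or 4, and 5 without LowMg-HFD replicate 1. Pck1, the enzyme of glyceroneogenesis, was at 101, 92.8, 105, 167 and 269.9 FPKM in NormMg-HFD mice and 645, 359.9, 675, 132 and 609 in LowMg-HFD mice (1.62 ± 0.48, adjusted p = 0.0255). Replicate 4 was the lowest LowMg-HFD mouse and overlapped NormMg-HFD mice. Without it the rise of Pck1 was 2.04 (adjusted p = 0.00661, 0.00152 to 0.08 over all alternatives), and the groups did not overlap. Pck1 did not pass when NormMg-HFD replicate 1, 2 or 3 or LowMg-HFD replicate 1, 3 or 5 was left out. The phosphatidate phosphatase Lpin1 (0.57), the acyltransferase Gpam (0.49) and Dgat1 (0.31), which completes the molecule, rose, and Dgat2, at 0.10, did not pass.

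De novo lipogenesis was split. Of 14 genes 6 rose (42.9%, against 5.58% of all genes tested; 3 without NormMg-HFD replicate 3) and 0 fell, yet the median was -0.04, a value whose sign changed with median centring (0.01). The desaturase Scd1 was at 4273, 4098, 3355, 4156 and 5815 FPKM in NormMg-HFD and 6743, 6763, 8593, 5859 and 9923 in LowMg-HFD mice (0.80 ± 0.19, adjusted p = 0.0062). The transcription factors Srebf1 (0.50) and Mlxipl, which encodes ChREBP (0.51), and the acetyl-CoA carboxylases Acaca (0.71) and Acacb (0.69) rose. Without replicate 4, Mlxipl and Acaca did not pass, at 0.50 (adjusted p = 0.0697, 0.0212 to 0.132 over all alternatives) and 0.74 (adjusted p = 0.0586, 0.0138 to 0.128 over all alternatives). Fatty acid synthase (Fasn) was at 590.04, 554, 508, 577 and 432 FPKM in NormMg-HFD and 308, 517, 534, 622 and 539 in LowMg-HFD mice. With replicate 1 the lowest and replicate 4 the highest of the LowMg-HFD mice, its value was -0.11 (adjusted p = 0.849), and that of ATP citrate lyase (Acly) was -0.18 (adjusted p = 0.794).

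Catabolism of the branched-chain amino acids, a pathway that is active in adipocytes, had the highest share of rises among the 57 lists with a gene tested. Of 23 genes 13 rose (56.5%, against 5.58% of all genes tested) and 0 fell (median 0.35), and 13 rose without replicate 4. The number lay between 10 and 13 when each mouse was left out. Aldh6a1, the dehydrogenase of the valine path, was at 67.7, 82.3, 49.8, 65.9 and 83.1 FPKM in NormMg-HFD and 105, 94.4, 153, 106 and 125 in LowMg-HFD mice (0.74 ± 0.13, adjusted p = 0.00224). Ivd of the leucine path (0.76) and Bckdha, a subunit of the committed step (47.1, 54.8, 48.01, 51.5 and 56.7 against 66.9, 60.6, 76.8, 66.9 and 74.2 FPKM, 0.41 ± 0.09, adjusted p = 0.00516), rose as well, and the transaminase Bcat2 did not pass (0.24).

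Of 21 fatty acid oxidation genes 2 rose and 2 fell (9.52% each, against 5.58% and 12.9% of all genes tested), and the median was -0.002, which was positive with median centring at 0.06. The number that rose was 0 without NormMg-HFD replicate 1, 3 or 4 or LowMg-HFD replicate 2 or 3, and 1 without NormMg-HFD replicate 2, LowMg-HFD replicate 1 or 5, NormMg-LFD replicate 2, 3 or 5 or LowMg-LFD replicate 5. The number that fell was 0 with median centring and without NormMg-HFD replicate 1, 2, 3 or 4 or LowMg-HFD replicate 3 or 5, and 1 without NormMg-HFD replicate 5, LowMg-HFD replicate 4, NormMg-LFD replicate 2, 3 or 5 or LowMg-LFD replicate 1, 4 or 5. The peroxisomal enzyme Ehhadh rose (0.45), and Hadha (-0.36) and the carnitine palmitoyltransferase Cpt1a (52.7, 50.9, 51.2, 55.9 and 49.6 FPKM against 47.98, 50.6, 34.5, 35.96 and 38.8, -0.33 ± 0.11, adjusted p = 0.0469) fell. Cpt1a did not pass without replicate 4 (adjusted p = 0.102, 0.0165 to 0.2 over all alternatives). Of 71 oxidative phosphorylation genes 2 rose (2.82%; 1 to 3 when each mouse was left out), Ndufv3 (0.34) and Ndufa5 (0.33), the latter not without replicate 4 (adjusted p = 0.0611, 0.00622 to 0.127 over all alternatives), and of 24 genes of pyruvate dehydrogenase and the citric acid cycle 2 rose (8.33%), the kinase Pdk2 (20.5, 18.8, 22.7, 18.96 and 24.8 FPKM in NormMg-HFD and 39.2, 32.7, 37.1, 37.9 and 32.5 in LowMg-HFD mice, 0.74 ± 0.15, adjusted p = 0.00356) and Idh2 (0.36). In glycolysis 6 of 18 fell (33.3%, against 12.9% of all genes tested) and 2 rose (11.1%, against 5.58%), and with median centring 3 fell and 3 rose. The number that fell was 2 or 3 without NormMg-HFD replicate 1, 3 or 4 or LowMg-HFD replicate 1, 3 or 5, and the number that rose was 1 without NormMg-HFD replicate 1, 3 or 4 or LowMg-HFD replicate 3 or 4. The myeloid hexokinase Hk3, which passed the filter through the NormMg-HFD mice alone, had a value of -1.50, and the muscle and fat hexokinase Hk2 (0.49, not without replicate 4: adjusted p = 0.0554, 0.0108 to 0.114 over all alternatives) and the lactate dehydrogenase Ldhb (0.71) rose.

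Cholesterol synthesis was lower by its median (-0.50 over 19 genes), although 5 passed (26.3%, against 12.9% of all genes tested) and 2 did so with median centring. The number was 1 to 3 without NormMg-LFD replicate 5, NormMg-HFD replicate 1, 2, 3 or 4 or LowMg-HFD replicate 1, 3 or 5, and 8 without LowMg-LFD replicate 2. Dhcr7, the last enzyme of the Kandutsch-Russell path, was at 21.9, 23.5, 30.6, 28.9 and 16.9 FPKM in NormMg-HFD and 12.9, 12.96, 10.5, 16.1 and 12.4 in LowMg-HFD mice (-0.84 ± 0.22, adjusted p = 0.0108). The squalene epoxidase Sqle, at -0.57, did not pass (adjusted p = 0.228). For Sqle the values were 11.3, 11.4, 11.4, 10.1 and 7.81 FPKM in NormMg-HFD and 4.88, 6.27, 5.44, 15.03 and 4.82 in LowMg-HFD mice, so that 4 LowMg-HFD mice were below every NormMg-HFD mouse and replicate 4 was above all of them. Without it the value was -0.84 (adjusted p = 0.0561, 0.0296 to 0.439 over all alternatives). Of the genes of sterol handling, the esterifying enzyme Soat1 (-1.31) and the exporter Abcg1 (-0.82) fell, and Abca1 did not pass. Soat1 did not pass without replicate 4 (adjusted p = 0.0796, 0.00733 to 0.12 over all alternatives).

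Of 12 adipokines, 3 rose (25.0%, against 5.58% of all genes tested) and 2 fell (16.7%, close to the 12.9% of all genes tested). Adiponectin (Adipoq) was at 1117, 1131, 1072, 1217 and 1776 FPKM in NormMg-HFD and 2169.7, 1776, 2373, 1451 and 2381 in LowMg-HFD mice (0.69 ± 0.17, adjusted p = 0.00872), with replicate 4 the lowest of its group and below NormMg-HFD replicate 5. Nrg4, a growth factor acting on the liver, rose by 0.82, and Metrnl fell by 1.36. Leptin (Lep) was at 1090.4, 1205, 960.3, 1148 and 1285 in NormMg-HFD and 835, 1226, 663, 1072 and 964 FPKM in LowMg-HFD mice and did not pass (-0.28 ± 0.28, adjusted p = 0.524). The insulin-responsive glucose transporter Slc2a4 (GLUT4) was at 38.6, 39.8, 19.2, 29.3 and 43.4 FPKM in NormMg-HFD and 68.2, 62.9, 81.03, 58.2 and 81.2 in LowMg-HFD mice, without overlap (1.07 ± 0.17, adjusted p = 0.00178). The insulin receptor Insr rose by 0.52 and caveolin 1 (Cav1) by 0.35. Among adipogenic transcription factors Klf15 rose (0.55) and Cebpb fell (-0.57), the latter not without replicate 4 (adjusted p = 0.0779, 0.0122 to 0.12 over all alternatives). Pparg was higher in every LowMg-HFD mouse, at 92.2, 90.1, 119, 92.7 and 81.2 against 64.7, 78.8, 53.7, 69.9 and 75.5 FPKM, and did not pass (0.47 ± 0.17, adjusted p = 0.0621).

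Hsd11b1, which regenerates active glucocorticoid, rose from 25.8 ± 4.97 to 47.9 ± 4.34 FPKM (0.88 ± 0.19, adjusted p = 0.00485), whereas the glucocorticoid targets Fkbp5, Tsc22d3 and Per1 did not pass. Of 8 clock genes 2 rose (25.0%, against 5.58% of all genes tested). The number was 1 without NormMg-HFD replicate 1 or 2 or LowMg-HFD replicate 3, and 4 without LowMg-LFD replicate 3 or 4. Nr1d1 (REV-ERBα) was at 16.9, 19.02, 32.1, 39.6 and 47.5 FPKM in NormMg-HFD and 67.5, 55.3, 88.7, 52.4 and 43.2 in LowMg-HFD mice (1.03 ± 0.31, adjusted p = 0.0255). Such genes cycle over the day, and the time at which each mouse was killed is not given in the sources used here, so that its part was not tested. Among antioxidant enzymes Gpx3 (0.85) and the glutathione transferases Gsta3 and Gsta4 (1.39) rose, and haem oxygenase Hmox1 (-1.09), an enzyme of macrophages that digest red cells, fell. Igf1, made by adipose macrophages as well as adipocytes, was at 119, 112, 136, 107 and 102 FPKM in NormMg-HFD and 81.8, 99.99, 85.99, 79.9 and 83.9 in LowMg-HFD mice (-0.41 ± 0.09, adjusted p = 0.00479), and the growth hormone receptor Ghr rose (0.36).

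Of 11 channels, transporters and regulators of Mg2+ tested, 1 rose (9.09%) and 2 fell (18.2%), shares close to the 5.58% and 12.9% of all genes tested, and the median was 0.10. Without NormMg-HFD replicate 1, 3 or 4 or LowMg-HFD replicate 1, 3 or 4, 1 fell. On the list, 12 others, among them the absorptive channel Trpm6 and the exchanger Slc41a1, were under the filter. Ptp4a1, a phosphatase that binds the cyclin M transporters of Mg2+, rose from 119, 119.9, 110.5, 122 and 152 to 169, 164, 182, 158 and 212 FPKM (0.50 ± 0.10, adjusted p = 0.00393), without overlap. Magt1 fell by 0.37 (adjusted p = 0.032) and Ptp4a2 by 0.31 (adjusted p = 0.0148), and Magt1 did not pass without replicate 4 (adjusted p = 0.0776, 0.016 to 0.132 over all alternatives). The ubiquitous channel Trpm7, at 0.11, Cnnm2, at 0.21, and the mitochondrial channel Mrs2, at 0.10, did not pass. The level of Trpm7 was 17.5 ± 1.48 FPKM in NormMg-HFD and 18.98 ± 1.98 in LowMg-HFD mice.

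**Figure D4:**
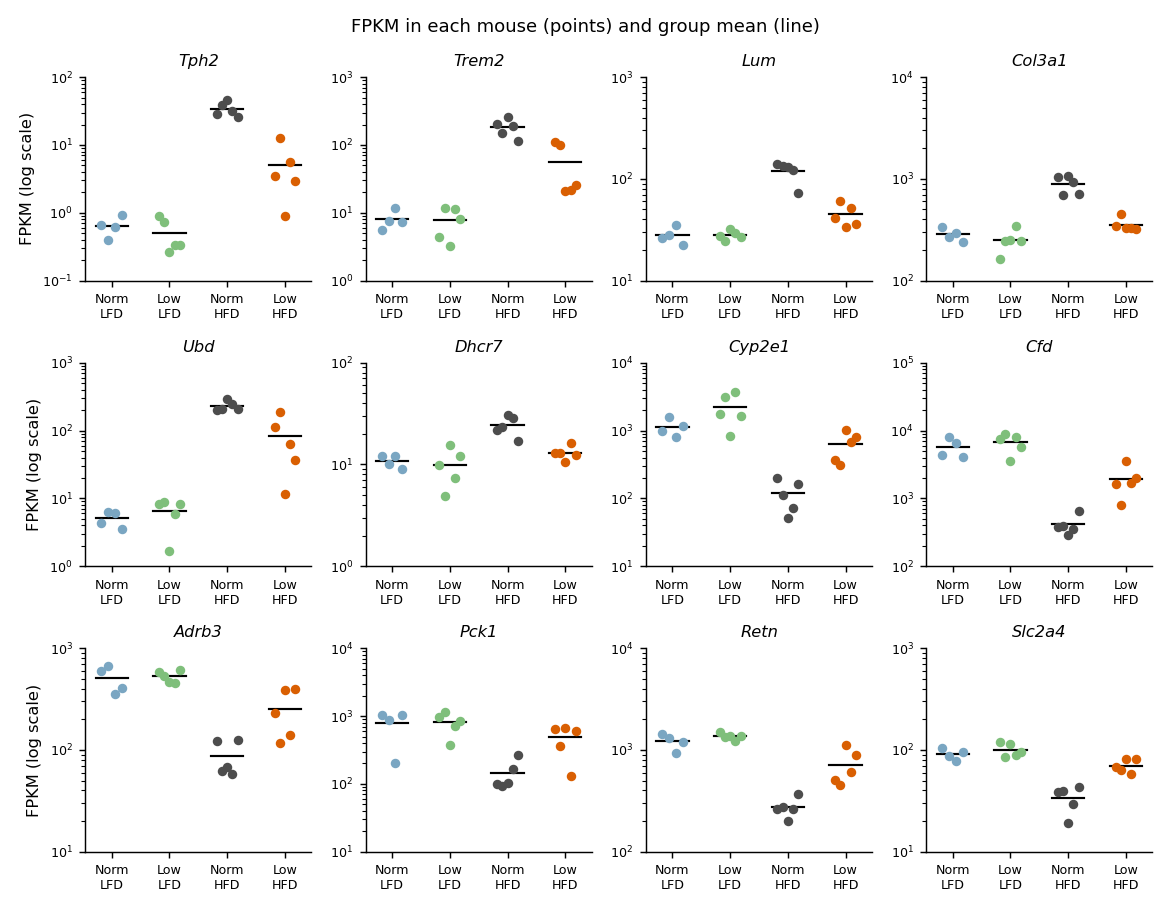
FPKM on a log axis (y axis) of 12 genes in each mouse of the 4 diets (x axis, n = 4 for NormMg-LFD and n = 5 for the others), with the group mean as a line. Tph2 and Slc2a4 separate the HFD groups, whereas for Adrb3 and Pck1 they overlap.

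On the LFD the same contrast of Mg2+ gave 0 genes past the threshold (limma), with 547 of 8336 at an unadjusted p under 0.05, against 2702 on the HFD. Whether a gene responded differently on the 2 fat levels was tested by the interaction term, and 104 genes (1.25%) passed, of which 40 were among the genes that rose on the HFD and 63 among those that fell. The 5 largest terms were those of Rgs1, a regulator of G protein signalling (-3.18 ± 0.66), Tph2 (-2.66 ± 0.51), the adaptor Stap1 (-2.20 ± 0.50), Basp1 (-1.99 ± 0.43) and Agt (1.93 ± 0.47), with adjusted p between 0.0343 and 0.0495. Of these, Rgs1, Tph2, Stap1 and Basp1 passed the expression filter through the NormMg-HFD mice alone, which favours a negative term. Rgs1 was at 61.1, 35.3, 54.4, 62.1 and 29.9 FPKM in NormMg-HFD and 32.05, 18.98, 4.08, 6.45 and 4.14 in LowMg-HFD mice, a difference of -2.18, whereas on the LFD the difference was 1.01. Lum (-1.41 ± 0.26), Timp4 (1.71 ± 0.32) and Ndrg2 (1.53 ± 0.26) also passed (adjusted p = 0.0343 for each), and Cyp2e1, Trem2, Adrb3 and Lipe did not (adjusted p = 0.148, 0.104, 0.102 and 0.0988).

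The number of interaction terms that passed rested on single libraries. Without LowMg-HFD replicate 4 it was 34, and it lay between 0 and 482 when each of the 19 mice was left out. It was 0 without NormMg-HFD replicate 1, 3 or 4, LowMg-HFD replicate 3 or 5, NormMg-LFD replicate 2 or 3, or LowMg-LFD replicate 5. It was 1 and 67 without NormMg-LFD replicates 5 and 4, 207, 13, 49 and 6 without LowMg-LFD replicates 1 to 4, 328 without NormMg-HFD replicate 5, and 442 and 482 without LowMg-HFD replicates 1 and 2. For 4 genes the levels of NormMg-LFD mice are given beside those of the HFD mice, as a description. Lum was at 27.96 ± 5.33 FPKM (SD, n = 4), Slc2a4 at 91.5 ± 11.5 and Retn at 1222 ± 221 in NormMg-LFD mice, against 44.8 ± 11.4, 70.3 ± 10.5 and 716 ± 282 (n = 5) in LowMg-HFD mice and 119.8 ± 27.3, 34.05 ± 9.79 and 274 ± 60.8 in NormMg-HFD mice. For Trem2 the 3 means were 8.15 ± 2.71, 55.5 ± 45.1 and 183 ± 53.5.

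**Figure D5:**
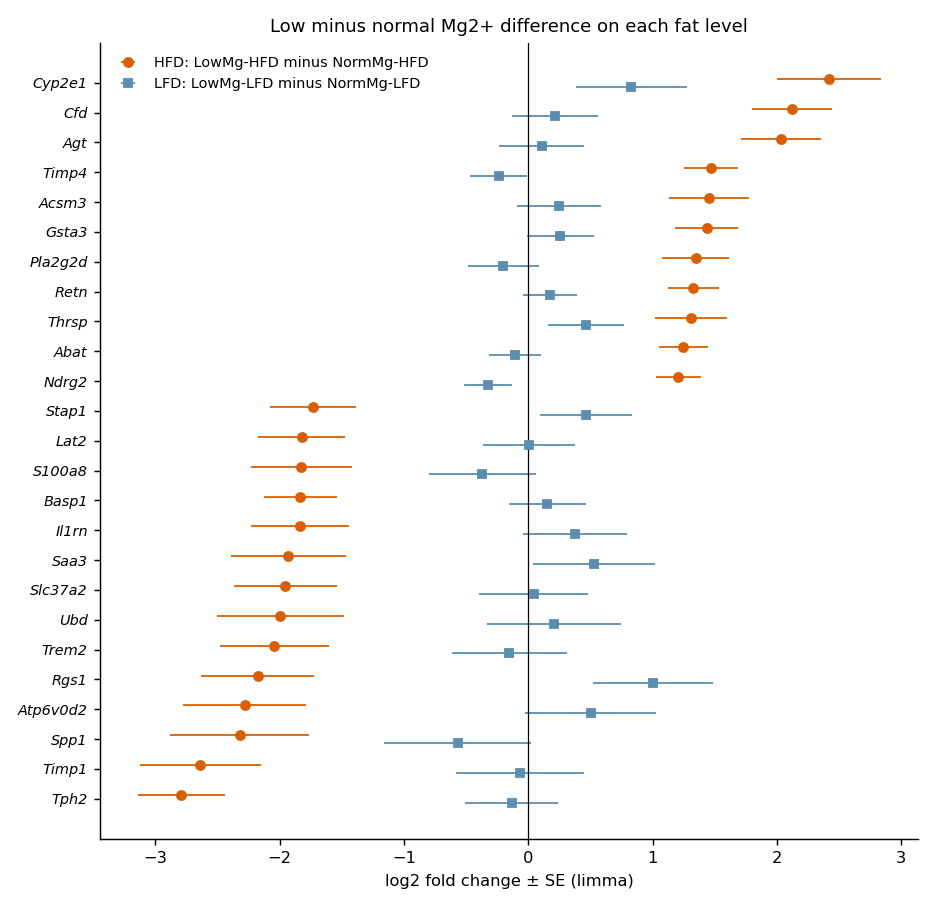
Log2 fold change ± SE (x axis, limma) between low and normal Mg2+ on the HFD (orange circles) and on the LFD (blue squares) for genes with the largest rises, falls and interaction terms (rows). On the LFD no gene passed the threshold, and the value of Rgs1 was 1.01 there and -2.18 on the HFD. Some genes shown, Rgs1 among them, passed the expression filter through the NormMg-HFD mice alone.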

How the data were processed

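RNA of eWAT was sequenced single-end by the study, 1 library per mouse. The submitters' processing notes name HISAT, Bowtie2, RSEM version 1.2.31 and the build GRCm38 (mm10). The authors deposited gene-level FPKM, scaled to transcript length and mapped reads, with no read numbers per gene. A second deposited table gave, per library, the count of clean reads and the percentage that mapped, as made by the authors' alignment. Of 24238 genes, 1 with a cell that is not a number was left out, 12 lines that are pieces of annotation were dropped, and 26 symbols turned into dates were restored.

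Genes entered the test when, in 1 of the 4 diets, both the mean FPKM and the FPKM of at least 4 mice exceeded 8. They were tested on log2(FPKM + 1) with limma 3.58.1 in R 4.3.3 (intensity trend, two-sided, Benjamini-Hochberg adjusted p, threshold 0.05). All 4 diets shared 1 fit, with contrasts for low minus normal Mg2+ on the HFD, on the LFD, and their difference. The fit was tested on simulated data. Alternatives changed the pseudocount, filter, scaling, trend, weights, replicate block, the groups fitted and the mice included.

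Named genes were the 12 largest rises and falls without overlap, genes marked in each list, the largest rise and fall per list, the 5 largest interaction terms, and genes the study measured by quantitative PCR. The other list members named were chosen after their values were seen. The comparison and the gene lists were chosen with earlier results of these data known. Promoters are those of RefSeq (GRCm38.p6), with 20 of 29 lysosomal genes matched by symbol. Results of some genes are not reported here.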

Additional observations from a re-analysis of the deposited data

Results flagged for a closer look

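Among 159 genes whose values are given, the log2(FPKM + 1) of the 5 mice of each HFD group was examined for a lowest or highest mouse far from the others. In 19 of 318 groups of 5 the gap between that mouse and its nearest neighbour, as a share of the whole range of the group, was above Dixon's critical value of 0.71, which chance exceeds in about 1 in 20 groups. The mouse, the end of the range and the share are given for each. In LowMg-HFD replicate 1 this held for Fasn (lowest, 0.737). In LowMg-HFD replicate 2 this held for Col3a1 (highest, 0.81). In LowMg-HFD replicate 3 this held for Cma1 (highest, 0.791), Tpsb2 (highest, 0.749). In LowMg-HFD replicate 4 this held for Adcy4 (lowest, 0.754), Aif1 (highest, 0.879), Sqle (highest, 0.78). In LowMg-HFD replicate 5 this held for Cnnm2 (highest, 0.715). In NormMg-HFD replicate 1 this held for Mertk (highest, 0.716), Timp2 (highest, 0.741). In NormMg-HFD replicate 3 this held for Ccl2 (highest, 0.773), H2-Aa (highest, 0.817), H2-Ab1 (highest, 0.826), Mrs2 (lowest, 0.716). In NormMg-HFD replicate 5 this held for Adipoq (highest, 0.748), Lum (lowest, 0.779), Mmp14 (lowest, 0.855), Pdgfra (lowest, 0.823), Ptp4a2 (lowest, 0.716).

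The difference between low and normal Mg2+ was not the same on both fat levels, by the interaction term of the limma model, for 17 of these genes. The value is the log2 difference on the HFD less the LFD difference. It was negative for Adgre1 (-1.72), Atp6v1a (-0.879), Basp1 (-1.99), C5ar1 (-1.65), Col3a1 (-1.1), Igf1 (-0.696), Lum (-1.41), Mcm5 (-1.09), Pcna (-0.87), Plin2 (-1.44), Rgs1 (-3.18), Stap1 (-2.2), Tph2 (-2.66). It was positive for Abat (1.35), Agt (1.93), Ndrg2 (1.53), Timp4 (1.71). Over all genes tested, the number with such a term fell to 0 when any 1 of 8 libraries was left out, as given with the comparison of both diets. It was also 0 with the replicate block. Basp1, Mcm5, Rgs1, Stap1 and Tph2 passed the expression filter through the NormMg-HFD mice alone, which favours a negative value.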

How the results depend on the processing

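With no filter, 301 genes were higher, 404 were higher without overlap and 2 had an interaction term past the threshold. With quantile normalization 786 were higher, and with median centring and without LowMg-HFD replicate 4, an alternative added after the data were seen, 708 were lower and 635 were higher without overlap. Without that mouse and with log2(FPKM + 1) over 3 as the filter, 488 were higher without overlap. The number of interaction terms was 24 with a pseudocount of 0.1, 48 with a filter of FPKM over 1, 245 with median centring, 347 with quantile normalization, 67 without an intensity trend, 664 with array weights, and 35 without LowMg-HFD replicate 4 and with the filter of 3. When each mouse was left out, 262 to 510 genes were higher, 659 to 1149 lower, 267 to 477 higher without overlap and 0 to 482 had an interaction term. Leaving out an HFD mouse cannot lower the count without overlap among genes tested both ways. The causes of the other differences were not tested.

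The replicate numbers did not pair the mice: same-numbered mice of the HFD groups had correlations of their deviations of 0.0975, -0.156, -0.14, -0.0884 and 0.169. With the replicate block 472 genes were higher, 994 lower and 0 had an interaction term.

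Some of the 140 named genes past the threshold were picked by the size of their change in these data. Of the 140, 100 kept their direction and threshold in every alternative in which they were tested, and none changed direction. The others were Abcg1, Acaca, Acacb, Acp5, Adcy4, Cav1, Cd209d, Cd209g, Cdkn1a, Cebpb, Ces1f, Clec10a, Cpt1a, Ctsd, Dgat1, Ehhadh, Eif4a1, Eif4a2, Fmo2, Ghr, Gpam, Gpx3, H2-Aa, H2-Ab1, Hadha, Hk2, Hspa5, Klf15, Lox, Magt1, Mlxipl, Mmp12, Ndufa5, Nr1d1, Pck1, Prkar1a, Ptp4a2, Scd1, Soat1 and Timp2. Of these, 15 were lost without LowMg-HFD replicate 4, 28 without NormMg-HFD replicate 3, 30 without LowMg-HFD replicate 3, 23 without LowMg-HFD replicate 5 and 32 with no filter. A gene under the filter in an alternative was not tested there and could still count among the 100. This held for Mcpt4, Cma1 and Tpsb2 without any 1 of NormMg-HFD replicates 1 to 4. Of the genes that did not pass, Aif1 lay between -0.634 and 0.071 and Fasn between -0.192 and 0.0615 when each mouse was left out. FPKM carry no read counts per gene, so that no counting interval can be given, and 5 mice per group limit the precision of single genes.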
